A study of Mus musculus with 7 samples.

Results

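The subject here is 1 D segment of the mouse Igh heavy chain locus, called D_114687612 after its most frequent junction position (chromosome 12, mm9). It is the first D upstream of DQ52 with at least 100 junctions in every library. Its members are the sequenced junctions that join the JH4 coding end to positions 114687507 to 114687772 in the deletional orientation, the one in which the DNA between D and JH is lost. There were 5574 such junctions among 162617 D junctions, which lie from DQ52 to DFL16.1, and among 264791 junctions in all. The segment was chosen by its lower share of D junctions in VH81X-CBEscr/scr, so that share is described below with no test.

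Junctions were read by high-throughput genome-wide translocation sequencing (HTGTS), in which a primer at a fixed bait end reads into whatever DNA that end was joined to. The bait was the coding end of JH4, and the DNA came from B220+CD43highIgM- pro-B cells of the bone marrow. All mice were of the 129SVE background and 4 to 6 weeks old. The groups were WT (n = 3 libraries) and VH81X-CBEscr/scr (n = 4 libraries, also called the mutant). CBE stands for CTCF-binding element (from the series title), and the genotype name is taken to mean that both copies of such an element near VH81X were scrambled, although the labels leave this unsaid. VH81X lies on the V side of the locus, 148.765 kb upstream of D_114687612. Whether each library came from its own mouse is not given, and the p-values therefore cover the spread between libraries alone.

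Heavy chain genes are assembled in pro-B cells in an ordered way, with a D segment joined to a JH segment first and a V segment joined to the DJ unit afterwards. The RAG recombinase cuts between a coding segment and its recombination signal, which is a heptamer, a spacer and a nonamer. A D segment carries a signal on each side, the downstream one used for joining to JH and the upstream one for joining to V. Before the ends are joined, coding bases can be trimmed, and the polymerase TdT can insert bases that no template gives. D_114687612 lies 16.485 kb upstream of the JH4 coding end, 14.523 kb upstream of DQ52, the D nearest to JH, and 2.674 kb downstream of the next used D, D_114690286.

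The sequences of D_114687612 and of the D segments it is compared with are shown because the results turn on where in them the junctions fall. Each runs 5′ to 3′ in the sense direction of the gene (the minus strand), from the upstream nonamer through the spacer and the heptamer, which is in capitals, to the end of the core, the coding part of the D. They were read from the deposited junction sequences, each base covered by at least 2645 reads.
D_114687612, chromosome 12, from the position in its name to 114687655: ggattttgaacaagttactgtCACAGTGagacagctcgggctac
DQ52, chr12:114673089-114673127: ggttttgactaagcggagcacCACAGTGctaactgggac
D_114690286, chr12:114690286-114690330: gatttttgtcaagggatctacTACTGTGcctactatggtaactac
DFL16.1, chr12:114734544-114734594: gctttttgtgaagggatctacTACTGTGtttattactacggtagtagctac
The JH4 end that all of them join begins as follows, from its first coding base at position 114671127.
JH4, chr12:114671103-114671127: attactatgctatggactactgggg

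D_114687612 had a core of 16 bases, against 11 in DQ52, 23 in DFL16.1 and 17 in each of the 9 D segments in between. Its upstream heptamer, CACAGTG, was shared with DQ52, and these were the only 2 of the 12 used D segments with it, since the other 10 read TACTGTG. A used D segment is here one with at least 100 junctions in every library, and 12 of 35 clusters of D junctions met that. In a RefSeq gene table of another assembly (GRCm38.p6), 1 of 20 D genes, Ighd3-2, had a length of 16 bases. The match is by length only, and the positional name is kept.

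The segment took a smaller part of D junctions in VH81X-CBEscr/scr than in WT. In WT replicates 1 to 3, 863 of 22703, 899 of 22080 and 1319 of 30998 D junctions lay at it, or 3.80%, 4.07% and 4.26%. In VH81X-CBEscr/scr replicates 1 to 4 these were 756 of 25036, 610 of 19460, 534 of 20940 and 593 of 21400, or 3.02%, 3.13%, 2.55% and 2.77%. The highest mutant library, with a 95% Wilson interval of 2.90% to 3.39%, lay below the lowest WT library, with an interval of 3.56% to 4.06%. Lines are PCR reads without molecular identifiers and so not independent molecules, and these intervals cover counting error only. The means came to 4.04% ± 0.228 (SD, n = 3) and 2.87% ± 0.261 (SD, n = 4), a log2 difference of -0.50 and a 1.41-fold higher mean in WT. All 4 mutant libraries lay below every WT library, as chosen, and this held for 1 of the 12 used D segments (8.33%).

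The size of the difference depended on how repeated reads were counted. Between 71.8% and 84.8% of the lines of a library were marked as duplicates, and WT replicate 2 had the most. In WT replicate 2 the 899 junctions of D_114687612 came down to 171 distinct joints, against 242 to 489 in the other libraries. Counted once per distinct joint, the segment took 3.90% ± 0.172 (SD, n = 3) in the WT libraries and 3.22% ± 0.157 (SD, n = 4) in the mutant libraries, a log2 difference of -0.27 with no overlap of the groups. Among lines not marked duplicate the shares were 5.40% ± 0.469 (SD, n = 3) and 4.56% ± 0.357 (SD, n = 4), a log2 difference of -0.24, and here 1 mutant library reached into the WT range. With only the junctions inside the core or beyond its 3′ end, the difference was -0.49.

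**Figure D1:**
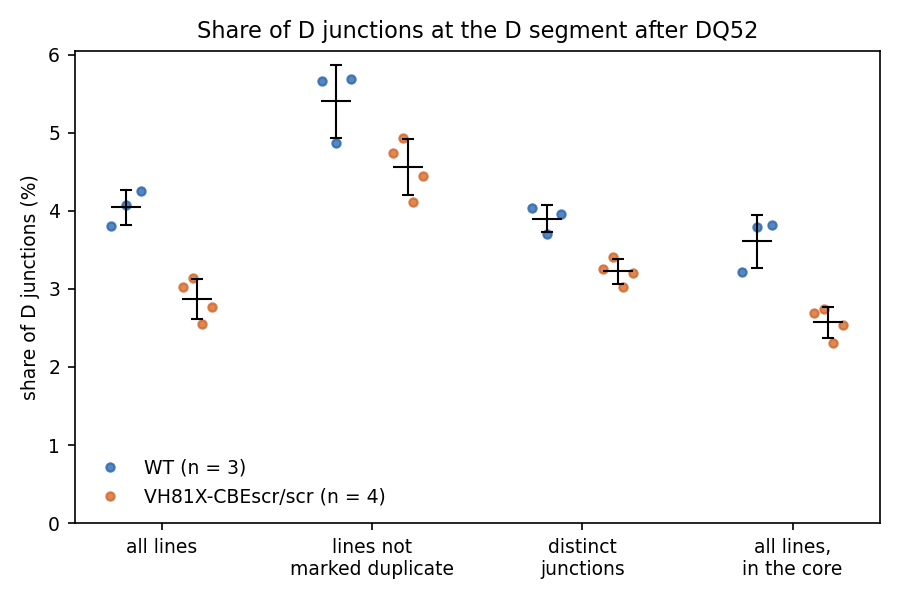
Share of D junctions (%) at D_114687612 in each library, counted over all lines, over lines not marked duplicate, over distinct junctions, and over all lines with the numerator limited to the core and the bases beyond its 3′ end. Points are libraries (blue WT, orange VH81X-CBEscr/scr), and bars give the mean and SD. The groups are apart in every count except that of lines not marked duplicate, where 1 mutant library lies above the lowest WT library.

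Neither neighbour of D_114687612 shared its direction. DQ52 took 5.63% ± 1.28 (SD, n = 3) of D junctions in the WT libraries and 5.71% ± 0.667 (SD, n = 4) in the mutant libraries. D_114690286 took 5.64% ± 0.358 in WT and 6.59% ± 0.591 in the mutant, with 3 of 4 mutant libraries above every WT library. DFL16.1, the D farthest from JH and the most used, took 23.0% ± 0.212 and 21.7% ± 1.44. In order of level, D_114687612 was the lowest of the 12 in both genotypes, and D_114723458 came next at 4.83% ± 0.649 in WT and 5.28% ± 0.304 in the mutant. Over the 7 libraries, the segments whose log2 share varied most like that of D_114687612 were D_114719358 (Pearson r 0.53), DFL16.1 (0.40) and D_114727777 (0.29). All shares have the same denominator, and after the genotype means were removed these became -0.12, -0.35 and -0.18. Within genotypes the values for D_114690286 and D_114705399 were the highest, at 0.84 and 0.65, against -0.49 and -0.22 over all 7 libraries.

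The most frequent start of the joins of D_114687612 was taken as the untrimmed 3′ end of its core. A second, separate group of joins started upstream of the 5′ heptamer. At the last coding base, the position in the segment's name, 37.3% of the 5574 joins (2081) began, and 41.1% began farther inside the core. Another 11.0% began 1 to 6 bases beyond the end, which means that the first bases next to the core matched the germline signal. Only 1.06% (59) began inside the 5′ heptamer. The 8 bases just upstream of it, at 114687635 to 114687642, held 8.99% (501), and 28 joins lay farther out. This gap at the heptamer was visible in the profile of junction positions, with 34.4% of the joins past the heptamer starting at the base directly next to it.

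**Figure D2:**
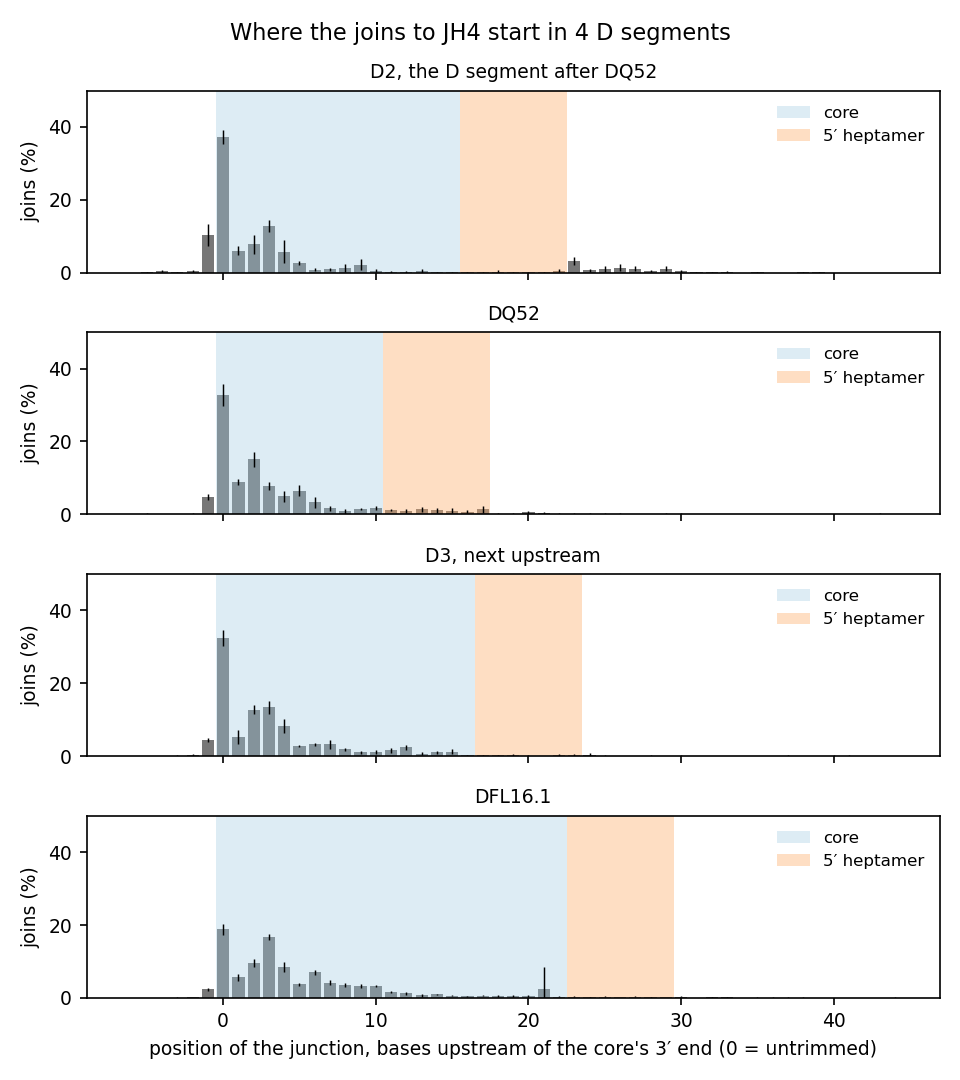
Share of a segment's joins (%) that start at each base, counted upstream from the 3′ end of the core (0, untrimmed), for D_114687612 (D2), DQ52, D_114690286 (D3) and DFL16.1. Bars are means of 7 libraries with the SD, blue marks the core and orange the 5′ heptamer. D2 alone among the 4 has a second group of bars to the right of the heptamer.

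Joins past the 5′ heptamer were several times more frequent at D_114687612 than at any other used D segment. They made up 13.6%, 6.56% and 9.48% of its joins in WT replicates 1 to 3. In VH81X-CBEscr/scr replicates 1 to 4 they made up 8.99%, 11.5%, 8.61% and 7.42%. The mean was 9.44% ± 2.39 (SD, n = 7), against 2.65% ± 0.815 at DQ52, 1.32% ± 0.282 at DFL16.1 and 1.32% ± 0.228 over the 9 segments in between. In 7 of 7 libraries D_114687612 was above each of these. The lowest library of D_114687612, at 6.56%, lay above the highest library of DQ52, at 4.00%. The measure was chosen after the junction positions had been seen, so no test is given for it. Reads of these joins aligned to the locus upstream over a median of 104 to 125.5 bases per library, against 101 to 142 for the other joins. Joins inside the 5′ heptamer went the other way, at 1.06% of joins of D_114687612 and 7.60% of those of DQ52. Joins inside the core or beyond its 3′ end made up 89.5% ± 2.78 at D_114687612 and 89.7% ± 1.27 at DQ52. At the other used segments they made up 95.4% to 97.3%. Loss of the whole core was thus about as frequent at DQ52, and the position of the junctions differed.

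The inserted bases of many of these joins held bases of DQ52. Of the 529 joins past the heptamer, 218 (41.2%) had at least 7 consecutive bases of the DQ52 core between the upstream flank of D_114687612 and JH4. With at least 8 bases the share was 28.4%, and with at least 6 it was 51.2%. The 218 joins came from 101 distinct joints and were found in 7 of 7 libraries. In WT replicates 1 to 3, 55 of 117, 27 of 59 and 48 of 125 joins past the heptamer held the stretch. In VH81X-CBEscr/scr replicates 1 to 4 these were 17 of 68, 36 of 70, 18 of 46 and 17 of 44. The most repeated such joint of each genotype is shown, because it lets the order of the parts be read directly. Each starts with 15 bases of the upstream flank of D_114687612 and ends with 12 bases of JH4, and the DQ52 bases are in capitals.
WT replicate 2, 7 lines, junction at 114687636: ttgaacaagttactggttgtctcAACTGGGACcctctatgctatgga
VH81X-CBEscr/scr replicate 2, 8 lines, junction at 114687641: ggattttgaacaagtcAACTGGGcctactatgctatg
In both, part of the upstream signal of D_114687612 stood next to the inserted bases, its heptamer and its whole core were absent, and the DQ52 stretch lay between it and JH4.

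Elsewhere such joints were nearly absent. Among joins past the heptamer, 0 held the DQ52 stretch at each of the 10 used D segments farther upstream, DFL16.1 with its 487 included. At DQ52 itself 1 of 251 held it, but a join past that heptamer has lost the DQ52 core, so DQ52 is no comparison here. Among joins of D_114687612 that did not lie past the heptamer, 12 held it (0.238%). Counted over all joins of a segment, the stretch was present in 4.18% ± 1.62 (SD, n = 7) at D_114687612, in 0.201% ± 0.123 at DFL16.1 and in 0.163% ± 0.0660 over the segments in between. The lowest library of D_114687612 had 2.51% and the highest library of DFL16.1 0.413%. Inserts of joins past the heptamer averaged 12.2 bases at D_114687612 and 3.63 to 5.65 at the other segments, which leaves less room for 7 bases. Whether insert length accounts for the low values at the other segments was not tested.

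**Figure D3:**
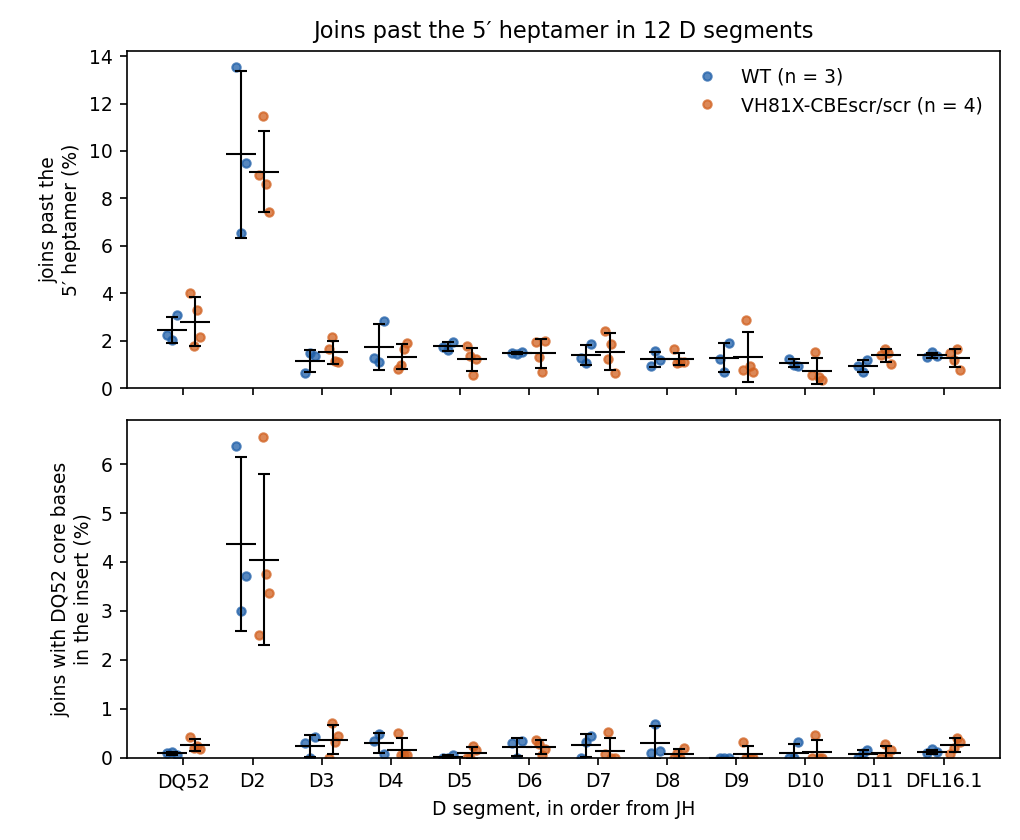
Joins past the 5′ heptamer (top) and joins whose inserted bases hold at least 7 bases of the DQ52 core (bottom), as a share (%) of all joins of each of the 12 used D segments, in order from JH. D2 is D_114687612 and D3 is D_114690286. Points are libraries and bars the mean and SD per genotype. In both panels every library of D2 lies above every library of the other segments.

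The frequency of these joins did not differ between the genotypes beyond the spread of the libraries. Joins past the heptamer made up 9.87% ± 3.51 (SD, n = 3) in the WT libraries and 9.13% ± 1.70 (SD, n = 4) in the mutant libraries, a difference of -0.740 percentage points (SE 1.62, limma adjusted p 0.953). The measure was called in 0 of 12 segments (0%). Joins with the DQ52 stretch made up 4.36% ± 1.78 and 4.05% ± 1.75 of all joins of the segment (two-sided exact permutation p 0.743). Of the joins past the heptamer, 43.7% ± 4.65 in WT and 38.5% ± 10.8 in the mutant held the stretch. The mean number of inserted bases in joins past the heptamer separated the groups but did not pass the test. Library means were 13.3, 12.8 and 12.2 in WT replicates 1 to 3, and 11.5, 11.2, 11.2 and 11.6 in mutant replicates 1 to 4. All 4 mutant libraries lay below every WT library, a separation found in 1 of the 12 used D segments (8.33%), while D_114710077 had all 4 above. The group means of 12.8 ± 0.552 and 11.4 ± 0.207 gave a two-sided exact permutation p of 0.0286, the smallest possible, and 0.171 after adjustment over the 12 segments.

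D_114687612 had more inserted bases than DQ52, DFL16.1 and the mean of the segments in between, and this went with the joins past the heptamer. The mean was 4.42 ± 0.287 inserted bases (SD, n = 7), against 3.41 ± 0.154 at DQ52, 3.41 ± 0.130 at DFL16.1 and 4.00 ± 0.0810 over the 9 segments in between. Among those 9, D_114700407 was level with it, at 4.418 against 4.424, with library ranges of 4.23 to 4.74 and 4.06 to 4.83. D_114687612 was higher than DQ52, DFL16.1 and the mean of the 9 in 7 of 7 libraries each. The two-sided exact sign-flip p was 0.0156, the smallest that 7 libraries allow, and the adjusted p was 0.0402 over 18 comparisons. Joins past the heptamer carried 12.2 inserted bases on average and the other joins of the segment 3.62. Without the joins past the heptamer, the library mean of D_114687612 fell to 3.63 ± 0.190. That is below the 3.995 ± 0.0864 of the segments in between in 7 of 7 libraries, and above DQ52 (3.38 ± 0.141) and DFL16.1 (3.40 ± 0.111) in 6 of 7 each. The direction against DFL16.1 turned to -0.141 bases over lines not marked duplicate and to -0.125 over distinct joints.

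D_114687612 had the lowest mean loss of core bases, but not the highest share of untrimmed joins. Untrimmed joins made up 37.3% at D_114687612. They made up 37.9% to 42.1% at D_114710077, D_114719358, D_114705399, D_114700407 and D_114723458. At DQ52 and the remaining segments in between they made up 31.8% to 33.8%, and at DFL16.1 18.7%. Among joins inside the core or beyond its 3′ end, 1.54 ± 0.129 bases were removed from that end on average (SD, n = 7), with a library range of 1.29 to 1.70. Joins beyond the end count as negative values and lower the mean. They made up 11.0% of joins at D_114687612, 5.03% at DQ52 and 2.65% at DFL16.1. DQ52 lost 1.96 ± 0.185, the segments in between 2.60 ± 0.0432 and DFL16.1 4.66 ± 1.08, and D_114687612 was lowest of the 4 in 7 of 7 libraries. A core of 16 bases cannot lose as many as one of 23, and the measure was chosen after the positions had been seen, so no test is given. With the joins past the heptamer included, 4.05 ± 0.630 bases were removed, and none of the 3 comparisons passed (exact sign-flip adjusted p 0.117 against DQ52, 0.0625 against DFL16.1 and 0.102 against the segments in between). All 3 passed once repeated reads were removed. The difference from DQ52 went from 0.563 bases to 1.38 over lines not marked duplicate (adjusted p 0.0234) and 0.943 over distinct joints (adjusted p 0.0335). The difference from the segments in between went from 0.625 to 1.22 (adjusted p 0.0402) and 0.995 (adjusted p 0.0335), and that from DFL16.1 from -1.46 to -3.15 (adjusted p 0.0234) and -1.29 (adjusted p 0.0335).

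Fewer joins of D_114687612 than of DQ52 or DFL16.1 lacked inserted bases. Joins without any made up 8.32% ± 2.11 (SD, n = 7), against 13.0% ± 1.29 at DQ52 and 12.5% ± 1.33 at DFL16.1, lower in 7 of 7 libraries each (exact sign-flip adjusted p 0.0402). Over distinct joints the difference from DFL16.1 turned to 0.204 percentage points above it, and that from DQ52 was -2.86 (adjusted p 0.0586). Against the segments in between, at 9.84% ± 0.613, the adjusted p was 0.161. Among them D_114700407 and D_114723458 were level with D_114687612, at 8.28% each. Microhomology, an overlap of the 2 ends in the same bases, was found in 3.53% ± 2.06 of joins, against 4.33% ± 0.859 at DQ52, 6.84% ± 0.958 at DFL16.1 and 5.51% ± 0.265 in between, and none of these comparisons passed (adjusted p 0.413, 0.0625 and 0.130). All 3 passed over lines not marked duplicate, with differences of -2.46, -3.10 and -2.31 percentage points (adjusted p 0.0234 each), and that from DQ52 also passed over distinct joints (-0.615, adjusted p 0.0335). Over distinct joints the difference from DFL16.1 was 0.0900 percentage points (adjusted p 0.829).

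The JH4 side of the joins lost 5.30 ± 0.261 bases (SD, n = 7). At DQ52 it lost 5.95 ± 0.390, more in 7 of 7 libraries (exact sign-flip adjusted p 0.0402, and 0.0781 over distinct joints), and it lost 5.25 ± 0.315 in joins to DFL16.1 (adjusted p 0.875). Over lines not marked duplicate the differences from DFL16.1 and from the segments in between were -2.15 and -1.08 bases (adjusted p 0.0234 each). Lines that repeated another line's joint made up 61.8% ± 9.63 at D_114687612 and 69.4% ± 6.83 at DFL16.1 (lower in 7 of 7 libraries, adjusted p 0.0402). Over lines not marked duplicate that difference was -0.255 percentage points (adjusted p 0.650). The share of repeats can rise with the number of lines, which was 5574 at D_114687612 and 36309 at DFL16.1. How far this accounts for the difference was not tested. In all, 7 of the 18 comparisons with other segments passed. With 1 library left out, 6 libraries allow no p below 0.0312, and 0 of 18 passed after adjustment whichever library was left out. A few joins read through an unrearranged JH4 into JH3, 0.764% ± 0.739 of those of D_114687612 and 0.327% ± 0.305 of those of DFL16.1.

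**Figure D4:**
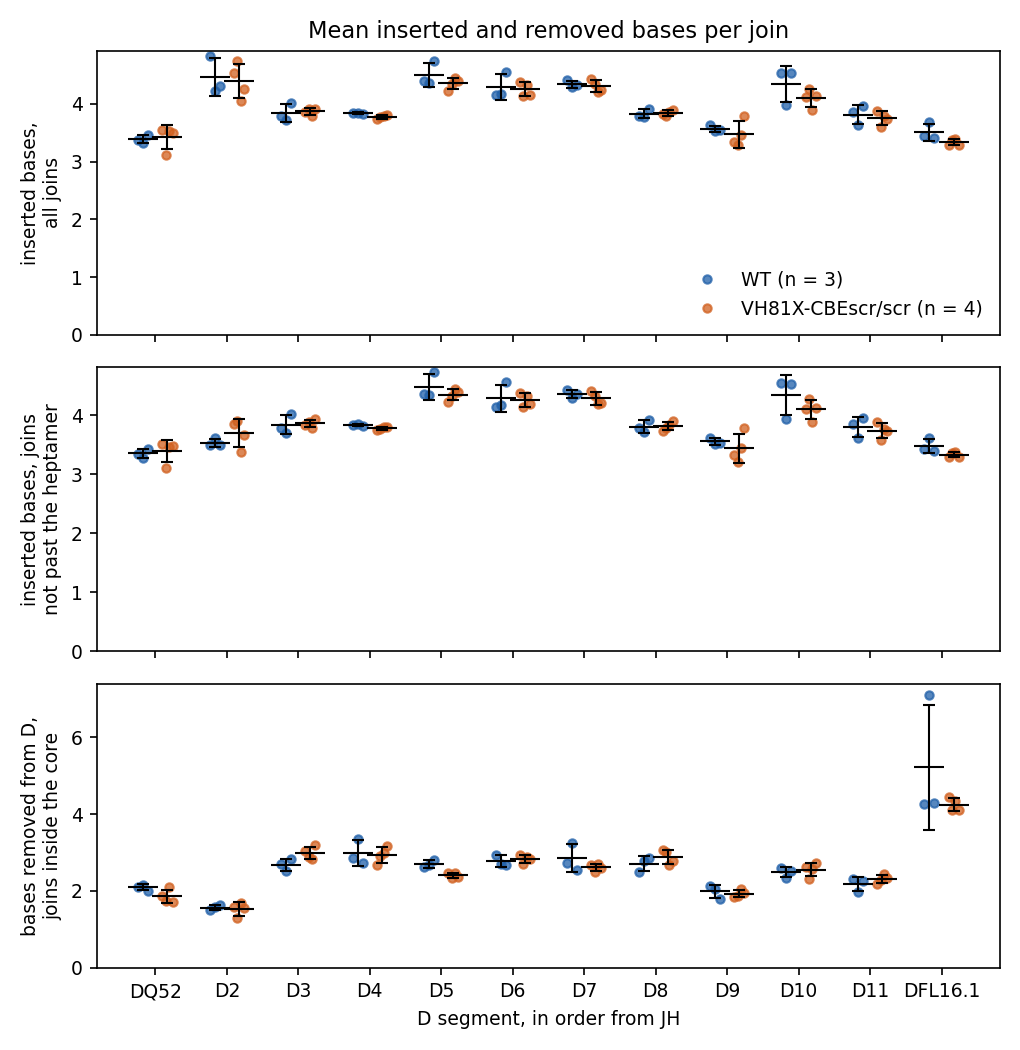
Mean inserted bases per join over all joins (top) and over joins not past the 5′ heptamer (middle), for the 12 used D segments in order from JH. The bottom panel gives mean bases removed from the 3′ end of the core in joins inside the core or beyond that end, the latter as negative values. Points are libraries and bars the mean and SD per genotype. D2, which is D_114687612, has a mean of 4.424 over 7 libraries in the top panel, level with D_114700407 at 4.418. It falls to 3.63 in the middle panel, and is the lowest in the bottom panel at 1.54.

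Between the genotypes, no measure of the joints of D_114687612 passed the test. limma called 0 of 72 combinations of 6 measures and 12 segments, so that for each measure 0 of 12 segments (0%) were called, while 5 of 72 had an unadjusted p under 0.05. For D_114687612 itself 2 of 6 did, and 0 of 6 by the exact permutation test, whose smallest p was 0.171. Joins without inserted bases made up 6.49%, 5.56% and 8.95% in WT replicates 1 to 3, and 8.33%, 12.1%, 8.99% and 7.76% in VH81X-CBEscr/scr replicates 1 to 4. The groups overlapped, and the means of 6.999% ± 1.75 (SD, n = 3) and 9.30% ± 1.95 (SD, n = 4) differed by 2.30 percentage points (SE 1.03, limma p 0.0294, adjusted p 0.537). Microhomology joins made up 2.45% ± 0.559 and 4.34% ± 2.49, a difference of 1.89 (SE 0.764, limma p 0.0161, adjusted p 0.537). VH81X-CBEscr/scr replicate 2, at 8.03%, was far above the other libraries, and without it the difference was 0.661 (adjusted p 0.881).

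The remaining measures did not pass the test either. Bases removed from the D numbered 4.15 ± 0.974 (SD, n = 3) in the WT libraries and 3.97 ± 0.378 (SD, n = 4) in the mutant (limma adjusted p 0.918). Bases removed from JH4 numbered 5.20 ± 0.331 and 5.38 ± 0.209 (limma adjusted p 0.888). Inserted bases numbered 4.46 ± 0.328 and 4.40 ± 0.302 (limma adjusted p 0.918), and repeated lines made up 65.3% ± 14.6 and 59.1% ± 4.65 (limma adjusted p 0.888). The 3 added measures were the JH3 joins, the inserted bases of joins not past the heptamer and the bases removed in joins inside the core or beyond its 3′ end. For these limma's adjusted p was 0.953 each, with 0 of 12 segments (0%) called. The share of untrimmed joins was 37.1% ± 0.646 in WT and 37.3% ± 2.75 in the mutant.

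A D segment can be read in 3 frames, since the number of bases lost and inserted sets which frame is in phase with JH4. The core of D_114687612 holds no stop codon in any of the 3 frames, which holds for 3 of the 12 used D segments, this one included, while the other 9 have one in at least 1 frame. Of 4931 joins inside the core or beyond its 3′ end that ended in JH4, 30.1% ± 3.46 (SD, n = 7), 36.7% ± 3.85 and 33.2% ± 4.06 fell in the 3 frames, named here in that order. The largest genotype difference was in the last of these, at 35.6% ± 2.53 in WT and 31.3% ± 4.24 in the mutant (two-sided exact permutation p 0.171, adjusted p 0.514 over 3 frames). The library ranges of the 3 frames overlapped.

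Inverted joins, in which the DNA joined to JH4 reads in the direction opposite to that of deletional joins, were rare. There were 18 at D_114687612 beside 5574 deletional ones, or 0.323%, from 11 distinct joints. By library they numbered 2, 0 and 2 in WT replicates 1 to 3 and 5, 3, 6 and 0 in mutant replicates 1 to 4. The log2 ratio of inverted to deletional joins (0.5 added to each count) was 1.65 higher in the mutant (two-sided exact permutation p 0.229), so that a difference was not detectable at this depth. Inverted joins came to 0.131% of deletional ones at DQ52 and 0.140% at DFL16.1, and the exact sign-flip adjusted p of the within-library comparisons was 0.188 and 0.141. In the segments in between they came to 0.0242% at D_114723458 up to 0.230% at D_114700407. Against the mean of these segments the log2 ratio was 1.45 higher (adjusted p 0.141), and 1.47 higher over distinct joints (adjusted p 0.0469). Of the 18, 10 began at the 3′ end of the core or in its heptamer and 8 within 2 bases of its 5′ end. The 10 run away from the core into the downstream signal, so only the 8 can carry a turned-round D. The shares and the ratio above count both kinds together.

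In completed V(D)J joins, the lower share of D_114687612 in the mutant was not found. These are junctions of JH4 to a V segment, which the choice of the segment did not use, and the D is read in the bases inserted between V and JH4. The D was counted when at least 8 consecutive inserted bases matched its core and no other. It was found in 1898 of 94821 V junctions with inserted bases. The files hold no insert of more than 30 bases, so joins with more between V and JH4 are not counted. By library these made up 1.88%, 1.75% and 1.91% in WT replicates 1 to 3, and 1.87%, 1.76%, 2.56% and 2.21% in VH81X-CBEscr/scr replicates 1 to 4. The groups overlapped, with 2 mutant libraries above every WT library. In joins of JH4 to the D segments upstream, 26 of 144554 (0.0180%) held the stretch. Their inserts averaged only 3.41 to 4.42 bases per segment, against 16.8 to 17.1 per library over all V junctions. With less room for 8 bases, they give no background rate for the V junctions.

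Means were 1.85% ± 0.0859 (SD, n = 3) in the WT libraries and 2.10% ± 0.357 (SD, n = 4) in the mutant libraries, a log2 difference of 0.17 (SE 0.117, limma adjusted p 0.731 over the 9 cores that could be told apart, exact permutation p 0.343). limma called 0 of the 9 cores (0%), and 0 had an unadjusted p under 0.05. Among distinct junctions the shares were 1.98% ± 0.0767 and 1.98% ± 0.174. Whether the difference in DJ joins and that in V(D)J joins are themselves different was not tested, since the first was used to choose the segment. The DQ52 core was found in 1.44% ± 0.145 and 1.66% ± 0.305 of V junctions, and the DFL16.1 core in 14.5% ± 1.08 and 14.5% ± 0.927. These levels depend on core length, since a short core loses its last 8 bases sooner, and are not set against each other here. D_114690286 had no stretch of its own and was not counted.

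**Figure D5:**
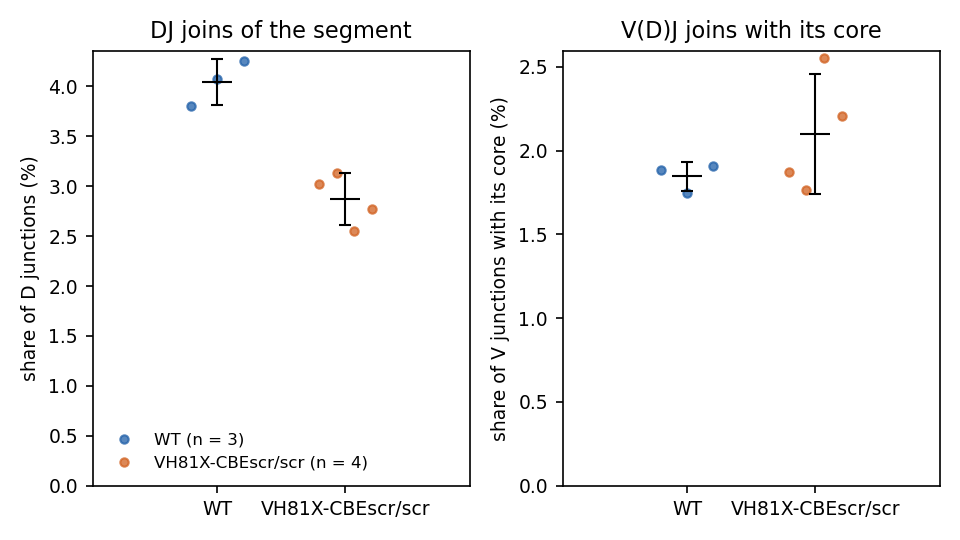
Share of D junctions (%) at D_114687612, which are DJ joins (left), and share (%) of V junctions whose inserted bases hold at least 8 bases of its core, which are V(D)J joins (right), per library. Bars give the mean and SD (WT n = 3, VH81X-CBEscr/scr n = 4). The groups are apart on the left (4.04% and 2.87%, the values that chose the segment) and overlap on the right (1.85% and 2.10%).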

How the data were processed

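The members and lists were chosen with earlier results of these data known. Per the file headers, each deposited line is 1 junction read with its position, strand and sequence. Alignment was with Bowtie2 and the build mm9 (per the submitters' processing notes, which give no version). No deposited column holds counts, so lines were counted here, duplicates included. The 7 libraries held 31986 to 46915 lines. A file column on mapping quality holds a single flag value, so no filter was set on it.

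D clusters were joined over gaps of at most 300 bp with at least 10 junctions. Inserted bases are those between the bait and the prey alignment, and bases removed were counted from the most frequent junction, taken as the end of the core. JH4's end was found by its heptamer. Names follow 1 rule: the segment, DQ52, the next D upstream, DFL16.1 and the 3 segments whose share varied most alike.

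Genotypes were compared with limma 3.58.1 (R 4.3.3) on 1 value per segment and library, with Benjamini-Hochberg adjustment over all segments and measures (threshold 0.05), and single values by exact permutation over 35 splits (smallest p 0.0286). Segments were compared by exact sign flips within libraries. All tests were two-sided. Measures of joins past the heptamer, of DQ52 bases, JH3, frames, trimming in joins inside the core or beyond its 3′ end, and inserted bases past the heptamer were chosen after seeing the data. Python 3.11.15, pandas 2.3.3 and SciPy 1.17.1 were used. Tested on simulated data, limma called 40 of 40 values shifted by several SD and 3 of 200 unshifted values. Smaller shifts were not simulated, so this gives no power for small genotype differences. Alternatives were lines not marked duplicate, distinct junctions, other windows and denominators, a replicate block and leaving out each library.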

Additional observations from a re-analysis of the deposited data

Results flagged for a closer look

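In 23 measures of D_114687612, the 4 VH81X-CBEscr/scr libraries were checked for 1 library that stood apart from the other 3, which chance finds in about 1 group in 20, and 2 measures had one. The share of joins with microhomology was 8.03% in replicate 2, while the other 3 lay between 2.53% and 3.44%, so that the gap to the nearest library made up 0.835 of the whole range. The other was the share in the first frame among joins inside the core or beyond its 3′ end. It was 36.7% in replicate 4, while the other 3 lay between 28.7% and 29.4%, a gap of 0.909 of the range. The causes were not tested.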

How the results depend on the processing

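The genotype difference in the share of D junctions (log2 -0.50, no test) shrank to -0.24 over lines not marked duplicate and to -0.27 over distinct junctions. With 1 library left out it ranged from -0.54 to -0.44. It stayed within 1 SD with a narrower window, other denominators or only junctions inside the core or beyond its 3′ end. The number of passing comparisons with other D segments, 7 of 18, became 14 over lines not marked duplicate, 6 of them among the original 7. Over distinct junctions, where 15 could be compared, it was 7, with 3 among the original 7. It was 0 whichever library was left out, where 6 libraries allow no exact p below 0.0312 before the adjustment over 18 comparisons. Against DFL16.1, the share without inserted bases turned to 0.204 percentage points higher over distinct junctions, and the inserted bases of joins not past the heptamer turned from 0.233 higher to 0.141 lower (-0.141) over lines not marked duplicate and 0.125 lower (-0.125) over distinct junctions. The cause was not tested. Joins past the heptamer stayed 6.04 to 13.0 percentage points above DQ52 under every count and library left out. No genotype comparison of joint measures, inverted joins or V(D)J cores changed its side of the threshold. The comparison of inverted joins with the segments in between passed over distinct junctions (exact sign-flip adjusted p 0.0469). With a replicate block, 0 joint measures of D_114687612 were called and the V(D)J log2 difference was 0.14 (limma adjusted p 0.879). Same-numbered libraries did not deviate together (r -0.53 to -0.25 over 11 segments, and -0.43 to 0.52 for differently numbered ones). Libraries handled together need not deviate alike in these values, so whether the numbers pair them was not settled. The alternative on mapping quality was not run. Depth limits the inverted joins, with 18 in all, and WT replicate 2, with 171 distinct joints of the segment.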

Other observations

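Other values of D_114687612 fit none of the comparisons above. Its downstream signal, which joins it to JH, was read in the inverted joins, each base covered by at least 15 reads, and runs from the heptamer (in capitals) through the spacer to the nonamer.
Downstream signal of D_114687612, chr12:114687584-114687611: CACTGTAagaaaagctcaaaccaaaact
Identical joints of the segment, with the same junction, JH4 end and inserted bases, recurred between libraries. WT replicates 1 and 3 shared 64, which were 15.5% of the distinct joints of the first and 13.1% of those of the second.

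Among V junctions that held the core of D_114687612, the partner lay within the first 110 kb of the V region in 19.3% ± 4.58 (SD, n = 7), against 22.6% ± 1.84 of all V junctions. The share was higher with the core in 1 of 7 libraries. The mean number of bases between V and JH4 in these joins was 18.6 to 19.9 per library, against 16.8 to 17.1 over all V junctions, and a join needs room for at least 8 core bases to be counted.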
